A study of Mus musculus with 9 samples.

Results

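The complement components C1qa, C1qb, C1qc, C3, and Cfp and the complement receptors C3ar1, C5ar1, Itgam, and Itgb2 were followed in cultured mouse microglia. The genes were chosen by name, for their place in the complement system, and are 9 of 54119 genes in the table and 9 of 16229 genes tested. The counts of all annotated transcripts of each gene were summed. RNA sequencing covered 9 libraries of total RNA from primary C57BL/6J microglia. A control siRNA, an siRNA against Chd8, and one against Tsc2 were each used for 3 libraries, numbered 1 to 3. A small interfering RNA (siRNA) lowers the mRNA that it matches. Chd8 encodes a chromatin remodeler, Tsc2 encodes a subunit of the complex that restrains mTOR signaling, and both are studied as autism-related genes. According to the methods, microglia were shaken off mixed glial cultures of late embryonic brains, and RNA was isolated after the siRNA treatment. The results of the study speak of stimulation with lipopolysaccharide, which the sample descriptions do not name.

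Complement is a chain of secreted proteins that tags particles for uptake and calls in immune cells. The classical route starts when C1q, built from the chains of C1qa, C1qb, and C1qc, binds a surface. The alternative route amplifies itself with factor B, and properdin (Cfp) holds its enzyme together. Both routes cleave C3. The large fragments coat the target and are bound by complement receptor 3, a pair of the integrin chains alpha M (Itgam, CD11b) and beta 2 (Itgb2, CD18), while the small fragment C3a acts through C3ar1. C5ar1 is the receptor of C5a, the small fragment of C5. In the developing brain, microglia use C1q, C3, and complement receptor 3 to remove synapses.

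The libraries held between 16913005 and 33213477 counts, so that 3 counts, taken as the floor of detection for counting error only, were 0.0903 to 0.177 CPM (counts divided by library size). Values below are CPM scaled with TMM factors, called normalised CPM. Chd8 had 86.8, 44.6, and 38.2 normalised CPM in its siRNA libraries 1 to 3 against 118, 97.5, and 93.6 with control siRNA, and Tsc2 had 24.6, 30.6, and 36.4 against 40.8, 39.9, and 38.9. Both targeted mRNAs were lower at each number, Tsc2 by −0.72, −0.38, and −0.09 on the log2 scale, although neither passed the test across all genes (adjusted p = 1.00 for both, edgeR). With the replicate number as a block, Chd8 passed both call thresholds (log2 fold change −0.93, adjusted p = 0.0078, edgeR), whereas Tsc2 did not (−0.39, adjusted p = 0.219). The 12 microglia markers summed to 2476 to 3090 normalised CPM, led by Ptprc, whereas the defining markers Tmem119 and Siglech had means of 0.217 and 0.187 normalised CPM and P2ry12 1.82. In bulk RNA, fewer cells of a type and less RNA per cell cannot be told apart. The libraries numbered 1 stood apart from those numbered 2 and 3 in each siRNA group. The astrocyte markers summed to 13.8 to 15.6 normalised CPM in the libraries numbered 1, 27.4 to 30.3 in those numbered 2, and 58.3 to 114 in those numbered 3, and the fibroblast markers to 19.5 to 21.6, 31.5 to 51.5, and 59.2 to 82.9. The oligodendrocyte lineage markers summed to 80.4 to 146 normalised CPM, led by Cnp with a mean of 86.3. The neuron markers, led by Map2, summed to 3.55 to 20.6, and the endothelial markers to 158 to 235, led by Flt1 with a mean of 131. Means were under 1 normalised CPM for 5 of the 10 oligodendrocyte lineage genes and 2 of the 6 endothelial genes. These sums thus rest largely on Cnp and Flt1. The endothelial sum was 183 to 235 with control, 158 to 173 with Chd8, and 168 to 214 with Tsc2 siRNA, so that Chd8 siRNA did not overlap control, and its part in the differences below was not tested. Neutrophil and lymphocyte markers were near 0, with no sum above 1.89.

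All 9 members were expressed well above the floor, and the C1q chains were the most abundant. On the scale of TPM, which divides the counts by transcript length, C1qb had a mean of 343 over the 9 libraries, C1qc of 283, and C1qa of 167. C1qb ranked 68th among the 29446 genes with a count, so that 0.228% of these genes were higher. C3ar1 followed with 166 TPM and C3 with 148 TPM. C1qa, C3ar1, and C3 did not differ beyond their spread in the control siRNA libraries, where they had 149 ± 20.8, 159 ± 20.9, and 178 ± 57.4 TPM (SD, n = 3). C5ar1 had 71.4 TPM, Itgam 56.6 TPM, and Itgb2 32.6 TPM. The spread of Itgam, 52.3 ± 28.9 TPM in the control siRNA libraries, covered both of its neighbours in this order. Cfp was the lowest, with 15.3 TPM, and 6.97% of the genes with a count were higher.

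To ask whether lowering Chd8 or Tsc2 changed these genes, each siRNA group was compared with control siRNA. None of the 9 members was called in either comparison by the quasi-likelihood test of edgeR (call thresholds FDR 0.05 and 1.5-fold), where 0% of the 16229 genes were called in both. At an unadjusted p under 0.05 none of the 9 members passed, against 3.83% of all genes for Chd8 siRNA and 2.59% for Tsc2 siRNA. DESeq2 and limma-voom called 0 of 9 as well, and 0.0555% and 0% of all genes for Chd8 siRNA and 0.0308% and 0% for Tsc2 siRNA. The median log2 fold change of the members was 0.13 in Chd8 siRNA-treated and 0.14 in Tsc2 siRNA-treated microglia, and that of all genes was −0.02 in both. With the replicate block the medians of the members were 0.12 and 0.21, and those of all genes −0.02 and −0.01. Both comparisons share the control libraries. C3 was the lowest of the members in both.

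The libraries with one number deviated together, as described under the processing, and a fit with the replicate number as a block narrowed the intervals. With this replicate block, C3 in Chd8 siRNA-treated microglia passed the FDR (log2 fold change −0.43, SE 0.084, adjusted p = 0.0232, edgeR) but not the fold change of 1.5, which with the FDR 0.53% of genes passed. It was the only member among the 1.04% of genes that passed without a fold threshold. In Tsc2 siRNA-treated microglia no member passed with the block, and the lowest adjusted p was 0.100 (C1qc), where 0.641% of genes passed the FDR and 0.388% the fold change as well. At an unadjusted p under 0.05 the block gave 4 of 9 members (C1qb, C1qc, C3, and Cfp) for Chd8 siRNA, against 12.9% of all genes, and 5 of 9 (C1qa, C1qb, C1qc, C3, and Cfp) for Tsc2 siRNA, against 10.7%. DESeq2 with the replicate block, an alternative added after the data were seen, passed C1qb, C1qc, and Cfp as higher and C3 as lower at an FDR of 0.05 for Chd8 siRNA, where 3.64% of all genes passed. For Tsc2 siRNA it passed C1qa and C1qc as higher and C3 as lower, against 1.85% of all genes. Every one of the differences passed by DESeq2 was under 1.5-fold, so that 0 of 9 members were called with both thresholds, against 0.869% and 0.721% of all genes.

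**Figure D1:**
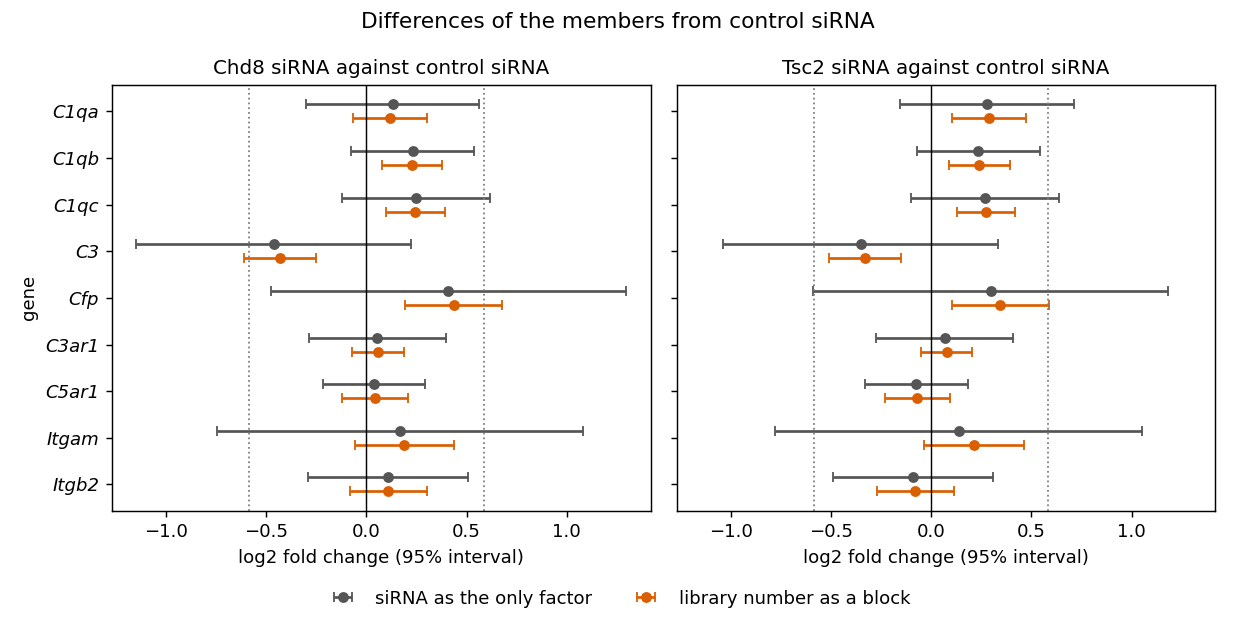
Log2 fold change of each member with its 95% interval for Chd8 siRNA (left) and Tsc2 siRNA (right) against control siRNA, with siRNA as the only factor (grey) and with the replicate number as a block (orange). Dotted lines mark a fold change of 1.5. Every grey interval includes 0, while in both panels the orange interval of C3 lies below 0 and those of C1qb, C1qc, and Cfp lie above 0.

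The C1q chains were higher on average in both siRNA groups, without passing the test of edgeR with or without the block, while DESeq2 with the block passed some of them at the FDR, as given above. The genes lie side by side on the minus strand of chromosome 4 (mm10), C1qb at chr4:136880129-136886187, C1qc at chr4:136889804-136893065, and C1qa at chr4:136895917-136898803. They span 18675 bases with gaps of 3616 and 2851 bases and with no other annotated gene between them. C1qb had 637, 746, and 612 normalised CPM with control siRNA (numbers 1 to 3, as in all values below), 821, 866, and 654 with Chd8 siRNA, and 763, 831, and 756 with Tsc2 siRNA. All 3 Tsc2 siRNA libraries were above the 3 control libraries, whereas the Chd8 siRNA libraries overlapped with control. It was the 1 member of 9 whose groups did not overlap for Tsc2 siRNA, where 3.88% of all genes were higher and 4.25% lower without overlap. For Chd8 siRNA 0 of 9 members did so, against 4.16% and 4.91%. The exact permutation p for C1qb was 0.1 (two-sided), the smallest that 3 libraries against 3 allow, and the log2 fold change was 0.24 (SE 0.14, adjusted p = 1.00, edgeR).

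C1qc had 647, 648, and 498 normalised CPM with control, 815, 733, and 582 with Chd8, and 815, 701, and 645 with Tsc2 siRNA. The groups overlapped, but within each number both siRNA libraries were above control. C1qa had 355, 328, and 253 normalised CPM with control siRNA, 424, 338, and 263 with Chd8 siRNA, and 433, 347, and 355 with Tsc2 siRNA. It was also higher at each of the 3 numbers in both siRNA groups. The log2 fold changes of C1qc were 0.25 (SE 0.17) for Chd8 siRNA and 0.27 (SE 0.17) for Tsc2 siRNA, and those of C1qa 0.13 (SE 0.19) and 0.28 (SE 0.19). With the block, C1qc had 0.24 (SE 0.068, adjusted p = 0.106, edgeR) and 0.27 (SE 0.068, adjusted p = 0.100). Leaving out 1 library moved C1qc from 0.13 (without control library 3) to 0.38 (without Chd8 siRNA library 3) for Chd8 siRNA and from 0.15 (without control library 3) to 0.34 (without Tsc2 siRNA library 3) for Tsc2 siRNA. For C1qa with Tsc2 siRNA the range was 0.15 (without control library 3) to 0.39 (without control library 1), and for C1qb with Chd8 siRNA 0.15 (without Chd8 siRNA library 2) to 0.35 (without Chd8 siRNA library 3). In all, 6 of 9 members were higher at all 3 numbers for Chd8 siRNA, against 17.7% of all genes, and 4 of 9 for Tsc2 siRNA, against 15.6%. C3 was the 1 member lower at all 3 numbers in each, against 18.3% and 16.4% of all genes.

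The C1q protein holds the 3 chains in equal numbers, so the shares of their mRNAs were compared. Of the TPM of the 3 genes, C1qb took 39.1% to 46.1%, C1qc 34.0% to 37.8%, and C1qa 18.8% to 23.3% in the 9 libraries. The shares did not differ between siRNA groups beyond their spread (C1qa 21.2% ± 1.82 with control, 19.9% ± 1.91 with Chd8, and 21.6% ± 1.68 with Tsc2 siRNA, SD, n = 3; exact permutation p of 0.5 and 1.0 against control, two-sided). C1qb took a smaller share in the 3 libraries numbered 1, with at most 41.0%, than in the other 6, with at least 44.2%. Across the 9 libraries, log2 CPM of C1qa and C1qc correlated with Pearson's r = 0.93, C1qb and C1qc with 0.79, and C1qa and C1qb with 0.63, as a description over libraries that share numbers and siRNA.

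Promoter sequences were taken from RefSeq (GRCm38.p6, the assembly of mm10), which had an entry for 7 of the 9 members; C1qa and Itgb2 were without one. The window before the C1qb start is shown because this chain was the one whose Tsc2 siRNA libraries lay apart from control. Capitals mark letters of the motifs searched, which were the ETS core AGGAAG (in 29.5% of 32851 promoter windows of 250 bases, both strands), the CCAAT box CCAAT (33.8%), the TATA box TATAAA (12.4%), an interferon element of GAAA, any 2 bases, and GAAA (2.98%), the C/EBP motif TTGCNNAA (9.56%), and an NF-kB pattern of GGGA, any 4 bases, and CC (17.6%). The minus strand window chr4:136886201-136886450 holds 1 ETS core and a pair of overlapping NF-kB matches. The windows of C1qc, C5ar1, and C3ar1 reach into the annotated gene and are not shown. That of C1qc held 2 ETS cores and 1 NF-kB match, that of C5ar1 3 ETS cores and 1 CCAAT box, and that of C3ar1 1 TATA box.
C1qb: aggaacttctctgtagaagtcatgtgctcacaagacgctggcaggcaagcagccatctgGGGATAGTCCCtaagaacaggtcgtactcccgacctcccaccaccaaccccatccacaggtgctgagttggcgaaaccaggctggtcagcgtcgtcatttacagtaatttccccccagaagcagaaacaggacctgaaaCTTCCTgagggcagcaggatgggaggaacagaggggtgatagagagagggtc

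C3, the protein on which all complement routes meet, was lower in both siRNA groups at every number. It lies on the minus strand at chr17:57203970-57228136. Control siRNA gave 1069, 2212, and 1902 normalised CPM, Chd8 siRNA 888, 1462, and 1414, and Tsc2 siRNA 987, 1806, and 1270. In each group the library numbered 1 was the lowest, and the groups overlapped. The astrocyte markers summed to 15.6 to 114 normalised CPM with control, 14.3 to 58.3 with Chd8, and 13.8 to 58.5 with Tsc2 siRNA. At numbers 1 and 3 control had the highest sum, and at number 2 Tsc2 siRNA had, with 30.3. Their part in the C3 values was not tested. Against control at the same number, log2 C3 differed by −0.27, −0.60, and −0.43 with Chd8 siRNA and by −0.12, −0.29, and −0.58 with Tsc2 siRNA. Tsc2 mRNA itself differed by −0.72, −0.38, and −0.09 with Tsc2 siRNA, so that C3 differed most where Tsc2 was lowered least. The Tsc2 siRNA differences of C1qa, C1qb, C1qc, and Cfp were also largest at number 3. A link of these differences to the lowering of Tsc2 was not tested. Without the block the log2 fold change of C3 was −0.46 (SE 0.31) for Chd8 siRNA and −0.35 (SE 0.31) for Tsc2 siRNA, and both 95% intervals included 0. Leaving out 1 library moved it between −0.71 (without control library 1) and −0.24 (without control library 2) for Chd8 siRNA, and between −0.61 (without Tsc2 siRNA library 2) and −0.13 (without control library 2) for Tsc2 siRNA. With the block it was −0.33 (SE 0.084, adjusted p = 0.109, edgeR) for Tsc2 siRNA. The pass of C3 for Chd8 siRNA was lost when a Chd8 siRNA library or control library 2 or 3 was left out, where the adjusted p rose as high as 0.264, and kept in the other 4 fits. The blocked log2 fold change lay between −0.52 and −0.34 in these 9 fits. For Tsc2 siRNA, C3 passed the FDR when control library 1 or Tsc2 siRNA library 1 was left out, with a lowest adjusted p of 0.0402 (edgeR). With the libraries numbered 2 and 3 only, also added after the data were seen, the blocked log2 fold change of C3 was −0.51 (adjusted p = 0.0141, edgeR) for Chd8 siRNA and −0.43 (adjusted p = 0.0256) for Tsc2 siRNA, where 1.28% and 1.42% of all genes passed. Between Chd8 siRNA and Tsc2 siRNA no difference in C3 was detected (log2 difference −0.11, 95% interval −0.80 to 0.57).

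The C3 window chr17:57228137-57228386 is shown because C3 was the member lower in both siRNA groups. It holds 3 NF-kB matches and 1 C/EBP match, marked in capitals, and ends at the start of the gene. These are matches of letters and not measured sites.
C3: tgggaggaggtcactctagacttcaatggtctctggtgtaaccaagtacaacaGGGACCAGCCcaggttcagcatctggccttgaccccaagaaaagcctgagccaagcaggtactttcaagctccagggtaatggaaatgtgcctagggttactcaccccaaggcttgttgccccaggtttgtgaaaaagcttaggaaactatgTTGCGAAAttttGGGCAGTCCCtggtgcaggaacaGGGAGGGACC

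Cfp, which encodes properdin, is at chrX:20925454-20931555 on the minus strand. Control siRNA gave 55.4, 34.8, and 21.1 normalised CPM, Chd8 siRNA 69.1, 48.3, and 30.4, and Tsc2 siRNA 64.9, 38.9, and 33.0. Every Chd8 and Tsc2 siRNA library was above the control library of its number, while the spread within a group was wider than the difference between groups. The log2 fold change was 0.41 (SE 0.40) for Chd8 siRNA, and 0.43 (SE 0.11, adjusted p = 0.0882, edgeR) with the block. Without the block it was 0.082 when Chd8 siRNA library 1 was left out and 0.82 when control library 1 was, and with the block it passed the FDR when Tsc2 siRNA library 3 was left out (adjusted p = 0.0458, edgeR). For Tsc2 siRNA it was 0.30 (SE 0.40), and 0.35 (SE 0.11, adjusted p = 0.249, edgeR) with the block. Without the block the Tsc2 siRNA value was −0.045 when Tsc2 siRNA library 1 was left out and 0.71 when control library 1 was.

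The receptors of the small fragments differed the least from control. C3ar1, the receptor of C3a, is at chr6:122847138-122856161 and C5ar1, the receptor of C5a, at chr7:16246743-16259540, both on the minus strand. C3ar1 had 1560, 1417, and 1147 normalised CPM with control siRNA, 1633, 1414, and 1235 with Chd8 siRNA, and 1534, 1492, and 1299 with Tsc2 siRNA. Its log2 fold changes were 0.05 (95% interval −0.29 to 0.40) and 0.07 (−0.27 to 0.41). C5ar1 varied the least of the members, with a highest library 1.3 times the lowest. It had 403, 349, and 319 normalised CPM with control siRNA, 370, 369, and 361 with Chd8 siRNA, and 347, 325, and 345 with Tsc2 siRNA. The 3 Chd8 siRNA libraries were above the 3 Tsc2 siRNA libraries, as the 1 member of 9 without overlap, against 4.03% of all genes higher and 4.38% lower, with a log2 difference of 0.11 (SE 0.11, adjusted p = 1.00, edgeR; exact permutation p = 0.1, two-sided). Against control, C5ar1 had log2 fold changes of 0.04 (95% interval −0.22 to 0.29) and −0.07 (−0.33 to 0.18). Per kilobase, C3ar1 was 2.00 to 2.68 times C5ar1 in the 9 libraries.

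The C5ar1 value depends on summing its transcripts. Transcript C5ar1-201 took 67.9%, 49.0%, and 86.1% of the estimated counts of the gene with control siRNA, 43.3%, 49.9%, and 45.3% with Chd8 siRNA, and 72.1%, 50.5%, and 54.8% with Tsc2 siRNA, and C5ar1-202 took the rest. The shares overlapped between groups (exact permutation p of 0.2 for Chd8 and 0.7 for Tsc2 siRNA against control, two-sided). With C5ar1-201 alone, the log2 fold change for Chd8 siRNA was −0.52, the opposite direction to the sum. C1qa, C1qb, and C3ar1 have 1 annotated transcript each, and C3-201 held a mean of 99.3% of the C3 counts. Itgam was split between Itgam-203, with a mean of 54.5%, and Itgam-201, with 41.6%.

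**Figure D2:**
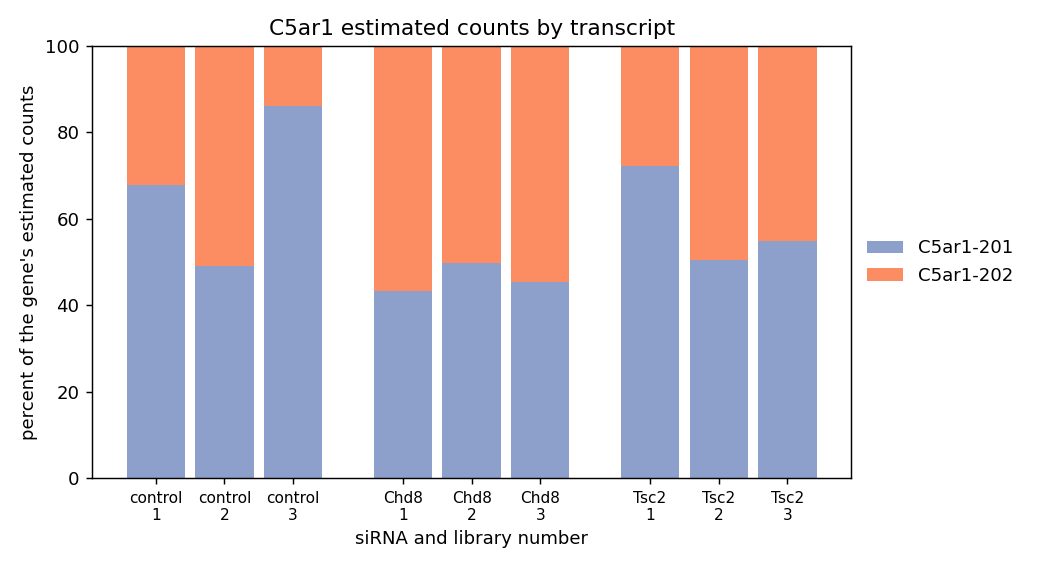
Share of the estimated counts of C5ar1 assigned to each transcript, in percent, for the 9 libraries by siRNA and library number. C5ar1-201 ranges from 43.3% to 86.1% of the gene, while the sum of the gene ranges over 1.3-fold.

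No change of the chains of complement receptor 3 was detected with either siRNA. Itgam is at chr7:128062640-128118491 and Itgb2 at chr10:77530252-77565708, both on the plus strand. Itgam had 706, 369, and 264 normalised CPM with control, 759, 413, and 329 with Chd8, and 682, 356, and 433 with Tsc2 siRNA. The library numbered 1 was the highest in each group. The log2 fold change of Itgam was 0.17 (95% interval −0.75 to 1.08) for Chd8 siRNA and 0.14 (−0.78 to 1.05) for Tsc2 siRNA. With the block the intervals were −0.06 to 0.44 and −0.04 to 0.46. An annotated gene that overlaps Itgam on the same strand, Gm49368, had 538 counts in all 9 libraries together.

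Itgb2 had 164, 223, and 161 normalised CPM with control siRNA, 175, 236, and 179 with Chd8 siRNA, and 184, 186, and 145 with Tsc2 siRNA. Here the libraries numbered 2 were the highest in each group. The log2 fold change was 0.11 (95% interval −0.29 to 0.51) for Chd8 siRNA and −0.09 (−0.49 to 0.31) for Tsc2 siRNA. No difference of a member between Chd8 siRNA- and Tsc2 siRNA-treated microglia passed the test (0 of 9 called, against 0% of all genes; 0 of 9 at an unadjusted p under 0.05, against 3.10%; 0 of 9 with DESeq2, against 0.0308%, and with limma-voom, against 0%). The same held with the replicate block, where 0.222% of genes were called, 0.376% passed the FDR alone, and the lowest adjusted p of a member was 0.472 (Itgb2, edgeR). At an unadjusted p under 0.05 with the block, 0 of 9 members passed, against 10.8% of all genes. DESeq2 with the block passed 0 of 9 members at the FDR, against 1.93% of all genes, and 0.616% with the fold change. At all 3 numbers, C5ar1 was higher with Chd8 siRNA than with Tsc2 siRNA, against 16.2% of all genes, and C1qa lower, against 15.9%.

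**Figure D3:**
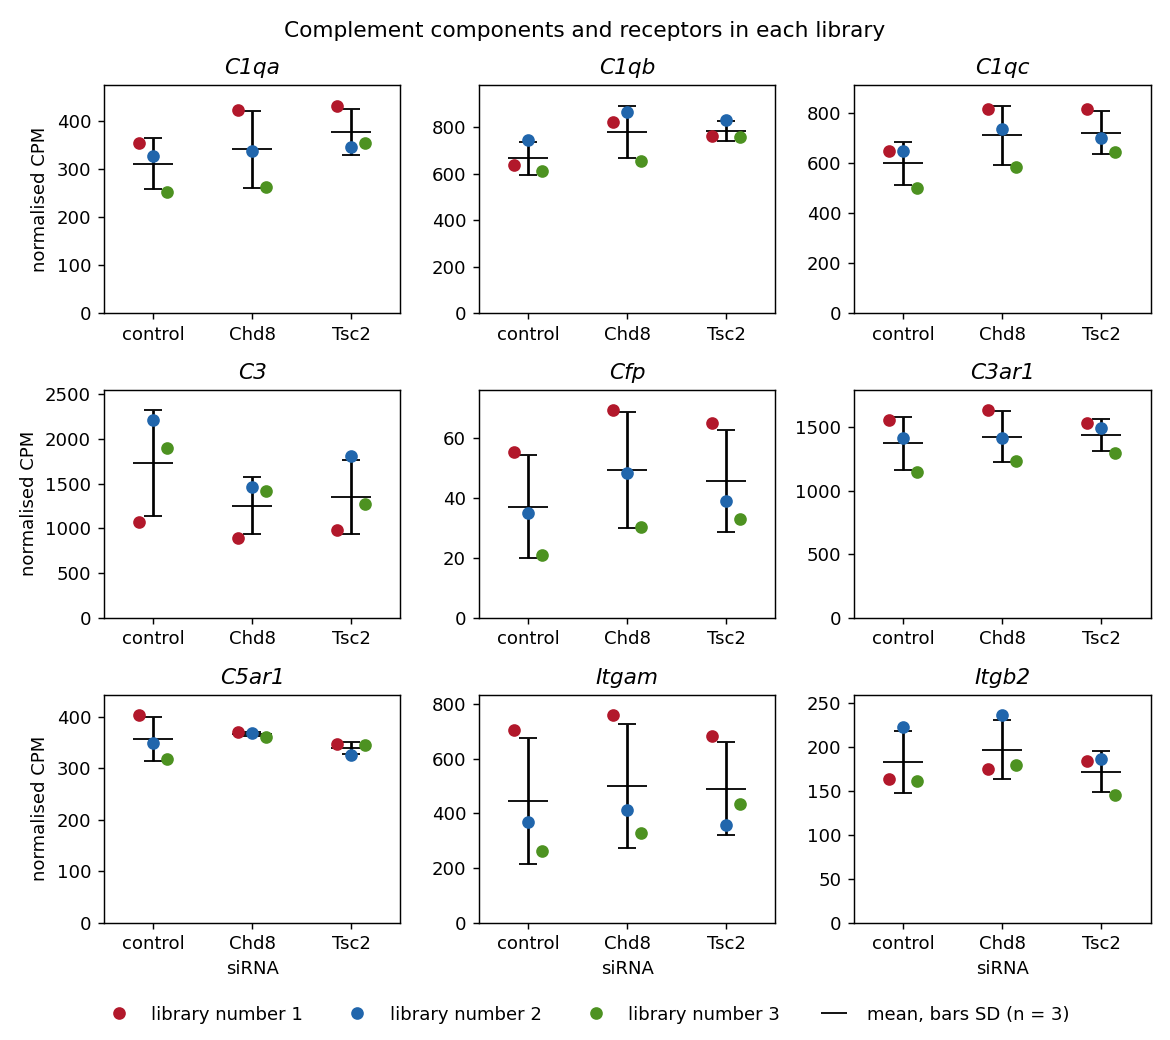
Normalised CPM of the 9 members in each library, with points coloured by library number, the mean of each siRNA group as a line, and bars of 1 SD (n = 3). The 3 siRNA groups overlap for C3, Itgam, and Cfp, and the libraries numbered 1 are the highest for Itgam (682 to 759) and Cfp (55.4 to 69.1) and the lowest for C3 (888 to 1069).

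The members were also compared between library numbers. With siRNA and number in one fit, 8 of 9 members passed the test of the number at an FDR of 0.05, all but C5ar1 (adjusted p = 0.425, edgeR). Over all genes tested 25.1% passed, and over the 2859 genes at or above the lowest mean of a member 53.6%. Under the alternatives 6 to 8 of the 9 members passed, and the share of all genes that passed in each alternative is not reported here. C1qb and Itgb2 no longer passed with library size alone as the scaling (adjusted p of 0.263 and 0.0710, edgeR), with the top transcript only (0.130 and 0.0679), without control library 2 (0.144 and 0.0853), and without Chd8 siRNA library 2 (0.106 and 0.0635). C1qb alone was also lost without control library 3 (0.0768), Chd8 siRNA library 3 (0.170), or Tsc2 siRNA library 2 (0.0519), and C1qa (0.0983) and Itgam (0.409) with the libraries numbered 2 and 3 only. Among the members, C3 (adjusted p = 5.4e-06), Cfp (5.7e-06), and Itgam (6.8e-06) had the lowest values. Itgam had 716 ± 39.5 normalised CPM in the 3 libraries numbered 1, 380 ± 30.0 in those numbered 2, and 342 ± 85.6 in those numbered 3 (SD, n = 3). Cfp had 63.1 ± 7.04, 40.6 ± 6.92, and 28.2 ± 6.28, and C3 had 981 ± 90.8, 1827 ± 376, and 1529 ± 331. Thus in the libraries numbered 1, Itgam was 1.98 times and Cfp 1.83 times the mean of the other 2 numbers, while C3 was 0.585 times that mean. The libraries numbered 1 lay above the other 6 for C1qa, C3ar1, Itgam, and Cfp, against 9.67% of all genes, and below them for C3, against 9.24%. The astrocyte and fibroblast marker sums given above also moved with the number, and their part in these differences was not tested.

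The promoter windows of Itgam, chr7:128062390-128062639, and Cfp, chrX:20931556-20931805, are shown because both genes moved with the number in the direction opposite to C3. The Itgam window holds 1 ETS core, marked in capitals, and the Cfp window holds none of the motifs searched. No match says only that these letters are not in this window.
Itgam: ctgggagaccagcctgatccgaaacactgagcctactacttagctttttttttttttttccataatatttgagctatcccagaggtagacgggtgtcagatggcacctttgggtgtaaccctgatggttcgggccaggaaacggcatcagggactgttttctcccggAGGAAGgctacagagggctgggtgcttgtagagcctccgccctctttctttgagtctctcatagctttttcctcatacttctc
Cfp: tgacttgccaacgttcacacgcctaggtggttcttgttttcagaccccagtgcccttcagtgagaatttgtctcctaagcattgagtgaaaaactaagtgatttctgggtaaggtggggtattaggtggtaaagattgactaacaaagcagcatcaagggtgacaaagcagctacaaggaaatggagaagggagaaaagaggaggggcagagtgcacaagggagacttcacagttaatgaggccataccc

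Single complement genes outside the members also differed between numbers. Cfb, which encodes factor B of the alternative route, had 129, 132, and 140 normalised CPM in the control, Chd8, and Tsc2 siRNA libraries numbered 1, and 11.9 to 22.2 in the other 6 libraries. The ratio of the means was 7.49 (adjusted p = 1.7e-10, edgeR). C4b, chosen after its values were seen, had 11.8 to 13.4 normalised CPM in the libraries numbered 1 and 1.23 to 2.99 in the others (adjusted p = 1.3e-06, edgeR). C4b encodes the C4 protein of the classical route, and its reads may be shared with its near copy C4a. With either siRNA, Cfb differed from control by a log2 fold change of −0.02 and 0.04, and by −0.15 (SE 0.12) and −0.10 (SE 0.12) with the block. Among 41 pathway genes tested beside the members, 20 passed the test of the number, beside the 25.1% of all genes and 53.6% of genes at the level of the members given above.

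**Figure D4:**
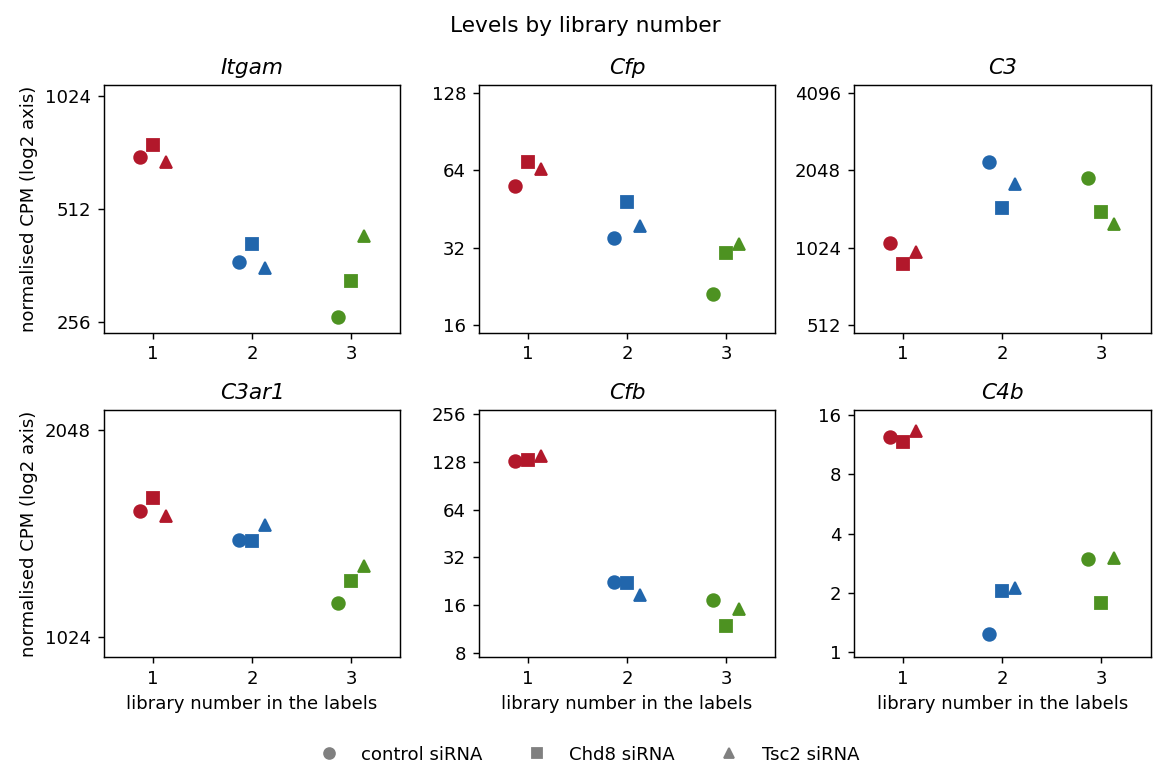
Normalised CPM on a log2 axis by library number for Itgam, Cfp, C3, C3ar1, Cfb, and C4b, with 1 symbol per siRNA. The 3 libraries numbered 1 lie above the other 6 for Itgam, Cfp, C3ar1, Cfb, and C4b and below them for C3.

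Beta 2 pairs with other alpha chains than Itgam, and the makeup of these chains also moved with the number. Itgal (CD11a), the alpha chain of the integrin that binds intercellular adhesion molecules, and Itgax (CD11c), the alpha chain of complement receptor 4, were compared with Itgam per kilobase. Itgam made up 79.0% to 83.7% of the alpha chain TPM in the libraries numbered 1 and 53.4% to 70.3% in the other 6. Itgal made up 16.0% to 20.8% and 26.2% to 44.7%, and Itgax at most 3.51%. Itgad, the last alpha chain, was at 0 in 8 of the 9 libraries. The Itgam share was 81.8%, 56.3%, and 53.4% with control siRNA and 83.7%, 67.3%, and 70.3% with Chd8 siRNA, higher at each number, but the groups overlapped (exact permutation p = 0.4, two-sided). With Tsc2 siRNA it was 79.0%, 53.7%, and 59.6%, lower than control at numbers 1 and 2 and higher at number 3 (exact permutation p = 0.9, two-sided). The alpha chains together were 1.71 to 3.47 times Itgb2 per kilobase.

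**Figure D5:**
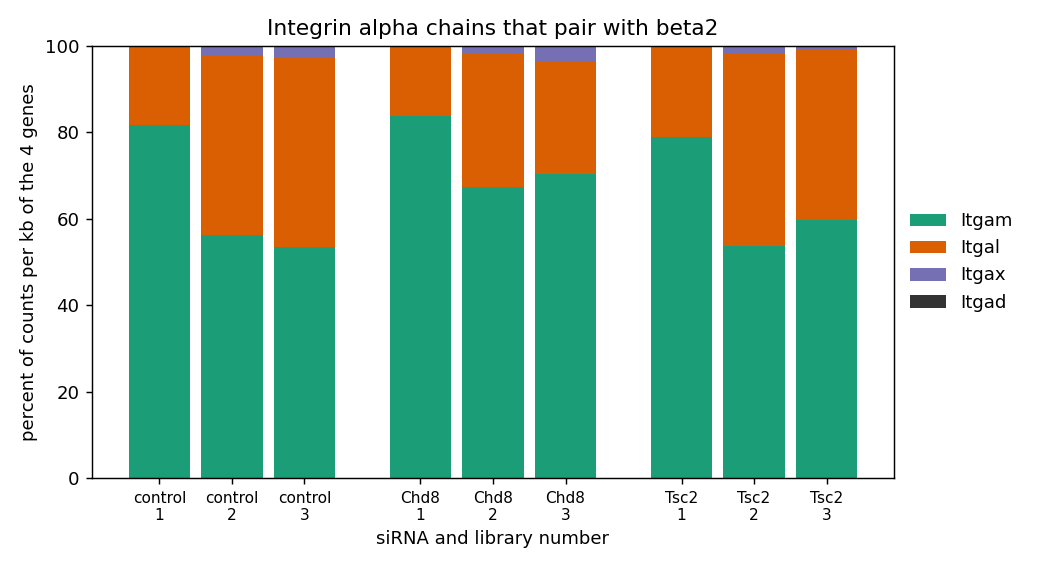
Shares of Itgam, Itgal, Itgax, and Itgad in the summed TPM of these 4 alpha chains, in percent, for each library by siRNA and library number. Itgam makes up 79.0% to 83.7% in the libraries numbered 1 and at most 70.3% in the others.

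The rest of the pathway was read from lists of 70 genes, of which 41 passed the count filter and 0 were called in any of the 3 comparisons (edgeR). At an unadjusted p under 0.05, 2 of the 41 were higher and 0 lower with Chd8 siRNA (3.83% of all genes in either direction), 1 higher and 1 lower with Tsc2 siRNA (2.59%), and 1 higher and 1 lower with Chd8 siRNA against Tsc2 siRNA (3.10%). DESeq2 and limma-voom also called 0. With the block 0, 0, and 2 were called, against 0.53%, 0.388%, and 0.222% of all genes. None of the 7 genes of the terminal complex passed the count filter, and their largest level in any library was 0.679 normalised CPM (C8a). Hc, which encodes C5, had a mean of 0.025 normalised CPM, and Cfd (factor D) and C8b were listed at 0 in every library.

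Of 17 genes that start the cascade, 9 were tested. Colec12, a collectin that binds surfaces, was the most abundant, with 207 ± 13.7 normalised CPM in control, 180 ± 6.56 in Chd8 siRNA, and 146 ± 14.1 in Tsc2 siRNA libraries (SD, n = 3). Its log2 fold change for Tsc2 siRNA was −0.51 (SE 0.11, adjusted p = 1.00, edgeR), and −0.51 (SE 0.081, adjusted p = 0.0099, edgeR) with the block, under 1.5-fold. With Chd8 siRNA it was higher by 0.30 on the log2 scale than with Tsc2 siRNA, without passing the test (adjusted p = 1.00, edgeR). C2, a protease of the classical route, and C1ra, a protease bound to C1q, had means of 16.8 and 8.72 normalised CPM in control libraries and log2 fold changes between −0.10 and 0.27 with either siRNA. The medians of the list were −0.16 for Chd8 siRNA and −0.10 for Tsc2 siRNA.

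Of 21 regulators, 11 were tested and 0 were called. Cr1l, which limits complement on the cell surface, had log2 fold changes of 0.24 and −0.06, and Clu, which encodes the secreted inhibitor clusterin, of −0.26 and −0.71 for Chd8 and Tsc2 siRNA (adjusted p = 1.00 for each, edgeR). The medians of the list were −0.11 and −0.20.

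Of 10 other receptors, 7 were tested. Itgal had 168, 289, and 231 normalised CPM with control siRNA, 155, 208, and 136 with Chd8 siRNA, and 187, 335, and 315 with Tsc2 siRNA. It was lower than control with Chd8 siRNA and higher with Tsc2 siRNA at each number. Between the 2 siRNAs it differed by −0.74 (SE 0.27, adjusted p = 1.00, edgeR), and with the block by −0.72 (SE 0.12, adjusted p = 0.0221, edgeR), past both thresholds. This call was lost in the 4 blocked fits that left out library 2 or 3 of either siRNA. Calr and Lrp1, which together take up particles tagged with C1q, had log2 fold changes of 0.18 and −0.03 for Chd8 siRNA and of −0.14 and −0.39 for Tsc2 siRNA (adjusted p = 1.00 for each, edgeR). With the block, Lrp1 for Tsc2 siRNA had an adjusted p of 0.0566 (edgeR).

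All 13 genes that work with the integrin inside the cell were tested. Apbb1ip, which brings talin to the beta chain, had 165 normalised CPM with control, 205 with Chd8, and 213 with Tsc2 siRNA, and log2 fold changes of 0.32 (SE 0.13) and 0.37 (SE 0.13). Rap1b, the small GTPase upstream of Apbb1ip, had 0.26 (SE 0.11) and 0.20 (SE 0.11). None of these passed the adjusted test, with adjusted p = 1.00 (edgeR) and, with the block, between 0.0651 and 0.232 (edgeR). Fcer1g, an adaptor of activating receptors, and Fyb, an adaptor that links signaling to integrins, had log2 fold changes between 0.04 and 0.21. The medians of the list were 0.04 for both siRNAs.

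For each member, the genes with the most similar pattern were sought among 6147 genes with a mean of at least 10 CPM, by Pearson's r of log2 CPM over the 9 libraries, which share numbers and siRNA. C1qa was followed most closely by Serp1 (r = 0.98), Bst2 (0.98), and Selplg (0.97), C1qb by Fau (0.97), Fcer1g (0.96), and Atp6v1g1 (0.95), and C1qc by Gm47242 (0.97), Arpc4 (0.97), and Dram2 (0.96). C3 went with Wsb2 (0.97), St3gal1 (0.97), and Slc40a1 (0.96), and Cfp with Grn (0.99), H2-T22 (0.98), and AB124611 (0.98). C3ar1 went with Prkx (0.98), Dusp2 (0.97), and Stat2 (0.97), and C5ar1 with Myh9 (0.94), Gas2l1 (0.89), and Inpp5d (0.88). Itgam went with Socs3 (0.99), 4930503L19Rik (0.98), and Dedd (0.98), and Itgb2 with Cog4 (0.97) and Tmem140 (0.97). Among the members themselves, Itgam and Cfp had r = 0.93 and Itgam and C3 r = −0.87, whereas Itgam and Itgb2, the chains of complement receptor 3, had r = −0.11.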

How the data were processed

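Salmon 0.14.1 (submitters' processing notes) on mm10 and tximport gave the estimated counts of each transcript, which the authors deposited without normalization. The annotation release is not given in the sources used here. Estimated counts were rounded and summed to genes with GENCODE mouse release M21, which matched 139852 of 140948 transcripts; the others held 0.27% of counts. Between 26.8% and 32.1% of values per library were not whole. Groups came from the sample titles. Genes passing filterByExpr were tested with edgeR 4.0.16 (TMM, quasi-likelihood test, all 9 libraries, siRNA as the only factor, Benjamini-Hochberg over 16229 genes) in R 4.3.3, with the call thresholds FDR 0.05 and 1.5-fold. DESeq2 1.42.0, limma-voom (limma 3.58.1), other scalings and filters, the replicate block, and left-out libraries were alternatives. Only the edgeR fit with TMM, with and without the replicate block, and its test of the number were tried on simulated data. The other alternatives were not. Single values used exact permutation tests, two-sided, on log2 normalised CPM with a pseudocount of 0.5 or on shares in percent.

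The replicate numbers were taken from the titles. Deviations from the group means correlated between libraries with one number in all 9 pairs (r of 0.34 to 0.63 across genes), and between other libraries from −0.46 to 0.06. According to the methods a biological replicate is a culture from a separate brain; whether libraries with one number share a culture is not stated. The p-values measure the spread between these libraries. The members and lists were chosen with earlier results of these data known. Named genes were all members, from each list those with an unadjusted p under 0.05 in any comparison and the 3 most abundant per kilobase, the 3 most similar to each member, the targeted genes, and the top gene of each marker list. C4b, C5ar2, Itgax, Itgad, Cd93, C8b, Tmem119, Siglech, and P2ry12 were added after their values were seen. Some genes that this rule names are not reported here.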

Additional observations from a re-analysis of the deposited data

Results flagged for a closer look

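A pair of receptor genes went opposite ways in the 2 siRNA groups at all 3 library numbers. Itgal was lower than control with Chd8 siRNA and higher with Tsc2 siRNA, and the log2 difference between Chd8 and Tsc2 siRNA was −0.74 (adjusted p = 1.00, and 0.0221 with the replicate block, edgeR). Cd93, a receptor once described as binding C1q and named after its values were seen, had 93.5, 53.4, and 87.2 normalised CPM with control siRNA, 83.8, 36.6, and 60.6 with Chd8 siRNA, and 104, 63.8, and 125 with Tsc2 siRNA. Its log2 difference between Chd8 and Tsc2 siRNA was −0.69 (adjusted p = 1.00, and 0.0206 with the replicate block, edgeR). Both calls of the blocked fit were lost when library 2 or 3 of either siRNA was left out. For both genes the Chd8 siRNA libraries overlapped with the Tsc2 siRNA libraries (exact permutation p = 0.2, two-sided) and with the control libraries.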

How the results depend on the processing

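No member was called with both thresholds under any alternative. The replicate block raised the genes called from 0 to 86, 63, and 36 for Chd8 siRNA against control, Tsc2 siRNA against control, and Chd8 siRNA against Tsc2 siRNA, and DESeq2 gave 9, 5, and 5. Without a fold change threshold, chosen after seeing the data, the block passed 1 member (C3, Chd8 siRNA against control). Among the pathway genes the block called 2 between Chd8 and Tsc2 siRNA (Itgal and Cd93), and it changed no other call of a member or pathway gene. All alternatives for the pathway genes were chosen after seeing the data. DESeq2 with the block called 1 for Tsc2 siRNA (Itgax), against 0.721% of all genes, and 3 between the siRNAs (Cd93, Itgal, and Itgax), against 0.616%. The libraries numbered 2 and 3 only, with the block, gave 2 for Chd8 siRNA (Itgal and C5ar2), 2 for Tsc2 siRNA (C5ar2 among them), and 2 between the siRNAs (Cd93 and Itgal). In that fit 1.28%, 1.42%, and 1.64% of all genes passed the FDR alone. The log2 fold changes of C5ar2 were 8.58 and 8.23, a size that a gene near the floor in the control libraries can give. Leaving out single libraries from the blocked fit gave 0 to 1, 0, and 0 to 2 called pathway genes, with Itgal called for Chd8 siRNA without Chd8 siRNA library 1, and with both calls between the siRNAs lost without library 2 or 3 of either siRNA. In these fits 0.117% to 1.62%, 0.0468% to 1.38%, and 0.0235% to 1.34% of all genes passed the FDR alone. Small differences changed sign, and the cause was not tested. For C5ar1 with Chd8 siRNA the log2 fold change was −0.0035 with library size only and −0.52 with the top transcript only, and with Tsc2 siRNA 0.0060 with the libraries numbered 2 and 3 only and 0.0073 with the block added. Between Chd8 and Tsc2 siRNA, C1qb had 0.0026 with DESeq2 size factors, 0.0014 without a count filter, and 0.0026 with DESeq2, and C5ar1 had −0.26 with the top transcript only. Itgam had −0.0084 with library size only, −0.00056 with limma-voom, −0.024 with the block, −0.014 with the top transcript only, −0.015 with DESeq2 and the block, −0.092 with the libraries numbered 2 and 3 only, and −0.11 with the block added. With 1 library left out, with or without the block, the log2 fold change for Chd8 siRNA against control ranged from −0.055 to 0.30 for C1qa, −0.060 to 0.16 for C3ar1, −0.036 to 0.14 for C5ar1, −0.27 to 0.66 for Itgam, and −0.042 to 0.28 for Itgb2. For Tsc2 siRNA against control it ranged from −0.045 to 0.17 for C3ar1, −0.15 to 0.025 for C5ar1, −0.17 to 0.64 for Itgam, −0.21 to 0.081 for Itgb2, and −0.045 to 0.71 for Cfp. Between Chd8 and Tsc2 siRNA it ranged from −0.34 to 0.0070 for C1qa, −0.087 to 0.10 for C1qb, −0.13 to 0.10 for C1qc, −0.30 to 0.15 for C3, −0.12 to 0.076 for C3ar1, −0.22 to 0.46 for Cfp, and −0.41 to 0.34 for Itgam. C3 was lower than control with both siRNAs under each alternative run, with the ranges for left-out libraries given beside its values.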
